A study of Mus musculus with 16 samples.

Results

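The genes described here encode the receptor for interleukin 2 (IL-2), the kinase and STAT5 factors that carry its signal, and the inhibitors that STAT5 induces to damp it. The set held 10 listed genes: Il2ra, Il2rb, Il2rg, Jak3, Stat5a, Stat5b, Socs1, Socs2, Socs3 and Cish. A gene entered through probe sets that the array platform's annotation assigns to that symbol and no other, and of several, the one brightest on average over all 16 arrays stood for the gene. This gave values for 8 of the 10, out of 19531 genes with a probe set of their own. No probe set carried the symbol Il2rg alone, so the common gamma chain was not analysed here. The single probe set that names Jak3, the kinase bound to that chain, also names Insl3, and no value is given for it. Socs2 and Socs3 each had 2 probe sets, and the other members had 1.

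The IL-2 receptor is built from an alpha chain (CD25, from Il2ra) that raises affinity, a beta chain (CD122, from Il2rb) and the common gamma chain. Binding of IL-2 activates the kinases Jak1 and Jak3, which phosphorylate the closely related factors STAT5A and STAT5B, and these enter the nucleus and bind DNA. Regulatory T cells (Treg) make little IL-2 of their own, carry a high level of CD25 and depend on IL-2 from other T cells. CIS (from Cish), SOCS1, SOCS2 and SOCS3 are SH2-domain proteins that feed back on cytokine receptors and their kinases.

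RNA came from CD3+CD4+ spleen cells of male mice 6 weeks old, double-sorted on GFP into GFP+ Treg and GFP- conventional T cells (Tconv), and was hybridised to Affymetrix arrays. All mice carried a GFP reporter at Foxp3, the gene for the Treg-defining transcription factor. In the fusion allele (Foxp3-GFP) GFP is joined to the Foxp3 protein, and in the ires allele (Foxp3-ires-GFP) it is translated separately from the same transcript. Each allele was on the C57BL/6 (B6) or the NOD background. NOD mice develop autoimmune diabetes. The 4 mouse lines and the 2 cell types made 8 groups with 2 arrays each, 8 arrays of Treg and 8 of Tconv. CD25 was not part of the sort, so no member was used to define the cells. The labels do not say whether the arrays of a group came from separate mice, so the p-values reflect how far a group's 2 arrays lay apart, a spread that may be technical. There was no group without a reporter allele.

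To show what a STAT5 element looks like beside these genes, the core letters TTCNNNGAA, in which N is any base, were searched in the promoters. The motif reads the same on both strands when the middle bases are left open, so 1 search covers both. The windows came from RefSeq on GRCm38.p6, ran from 250 bases before to 50 bases after a transcription start, and existed for 6 of the 8 members. Of 32851 windows over all genes, 8.30% held at least 1 match and 0.457% held 2 or more. Among the members, Cish and Socs3 held it and are printed below, 5′ to 3′ on the gene's strand, with the matches in capitals. Cish lies on the plus strand, and the stretch ran from base -80 to base 20, counted from the transcription start as base 1, chr9:107296579-107296678. Socs3 lies on the minus strand, and the stretch ran from base -234 to base -86, chr11:117969452-117969600.
Cish: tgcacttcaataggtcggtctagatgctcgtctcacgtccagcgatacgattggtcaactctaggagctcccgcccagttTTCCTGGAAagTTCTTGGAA
Socs3: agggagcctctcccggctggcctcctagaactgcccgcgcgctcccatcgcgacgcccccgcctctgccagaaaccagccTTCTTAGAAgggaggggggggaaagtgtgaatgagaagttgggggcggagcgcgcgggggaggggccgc
The 2 matches of Cish lay at bases 1 to 9 and 12 to 20 of the transcript, and the match of Socs3 lay at bases -154 to -146. The windows of Il2ra, Stat5a, Stat5b and Socs1 did not hold these letters. The 6 members had 8 windows in all. Those of Stat5a, Stat5b and Socs3 lay inside the span listed for the gene, so the sequence before its outermost start was not searched. No binding was measured in the study, so a match is a description of the letters only.

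The sort was checked on Foxp3, which lay between 11.37 and 12.16 on the Treg arrays and between 7.01 and 8.18 on the Tconv arrays (log2 intensity), a difference of 4.31 ± 0.11 (SE). All 5 T cell markers and all 5 Treg markers passed the filter on low values, Lrrc32 with 13 of 16 arrays above its level. Of the other cell types' markers on the arrays, 1 of 4 for B cells, 2 of 6 myeloid, 2 of 5 dendritic, 1 of 3 red cell and platelet and 3 of 5 CD8 T and NK markers passed that level. The log2 summed level of the CD8 T and NK list lay between 8.32 and 9.24 on Treg arrays and between 9.14 and 9.43 on Tconv arrays. In Treg, Klrd1 differed by -2.35 ± 0.13, Cd8b1 by -0.42 ± 0.08 and Cd8a by 0.23 ± 0.08. Klrd1 lay under the filter level on every Treg array (3.71 to 4.53) and passed the filter only through Tconv, so it had to differ. The B cell marker Cd79b was higher in Treg by 0.69 ± 0.09 (adjusted p = 1.03e-05), while the B cell list summed to 7.92 to 8.34 on Treg and 7.53 to 8.47 on Tconv arrays. Their part in the results below was not tested. Median intensities of the arrays ran from 86.7 to 99.0. The SD of the log2 difference between a group's 2 arrays was 0.18 to 0.25 over all genes.

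In Treg against Tconv, all 8 members were higher in Treg, from a large excess of Il2ra, Socs2, Il2rb and Cish to a small one of Socs3. Of all 12798 tested genes, 28.6% were called in this contrast and 16.7% were called higher (limma, adjusted p under 0.05). The median difference of the 8 members was 1.20 on the log2 scale, beside -0.01 over all tested genes. The arrays of the 2 cell types did not overlap for 6 members, beside 8.28% of all tested genes, and overlapped for Stat5b and Socs3. All 8 members passed the filter on low values, but Il2ra and Socs2 lay under its level (log2 6.06) on all 4 B6 Tconv arrays and on 2 of the 4 NOD Tconv arrays. The other NOD Tconv arrays were above that level, enough to pass the filter without Treg, so the filter did not force a difference. The Tconv levels of these 2 genes are close to the low end of the scale. In RNA from sorted populations, fewer cells of a type and less RNA per cell cannot be told apart.

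Il2ra, the alpha chain, showed the widest gap of the members. Its log2 intensity in Tconv was 5.27 and 5.56 in B6 fusion, 5.36 and 5.82 in B6 ires, 5.91 and 6.82 in NOD fusion, and 6.94 and 5.73 in NOD ires mice. In Treg it was 11.26 and 11.37, 11.35 and 11.22, 11.12 and 11.37, and 10.78 and 11.26 in the same order of lines. The Treg arrays lay close together and far above every Tconv array, while the 2 arrays of each NOD Tconv group were farther apart than those of any other group. The fitted difference was 5.29 ± 0.15 (SE). With Tconv values under the filter level raised to it, Il2ra was 30.9-fold higher in Treg (4.95 on the log2 scale). Since its Tconv values lay mostly under that level, its adjusted p is not given. Group means rose from B6 fusion Tconv (5.42) through the other Tconv groups to NOD ires Treg (11.02) and B6 fusion Treg (11.31), and within each cell type every pair of neighbouring groups overlapped.

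Il2rb, the beta chain that IL-2 shares with IL-15, had a median of 11.93 in Treg (range 11.49 to 12.39) and 8.93 in Tconv (8.73 to 9.49). No Tconv array came near the lowest Treg array, and the difference was 2.85 ± 0.10, or 7.23-fold (adjusted p = 1.55e-13). Unlike Il2ra, it was above the filter level on all 16 arrays. The B6 fusion Treg arrays were the highest (12.08 and 12.39), and neither overlapped those of another Treg group.

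The STAT5 genes differed by far less. Stat5a lay between 9.58 and 10.02 in Treg (median 9.72) and between 9.06 and 9.39 in Tconv (median 9.25), without overlap. Its difference was 0.50 ± 0.06, or 1.41-fold (adjusted p = 8.63e-07). Stat5b lay between 9.79 and 10.24 in Treg and between 9.51 and 9.83 in Tconv, so that the lowest Treg array, of B6 fusion mice, fell below the highest Tconv array, of NOD ires mice. Its difference was 0.34 ± 0.06, or 1.26-fold (adjusted p = 0.000144). For both genes the highest group was NOD ires Treg, which stood apart from its neighbour in the order.

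Socs2, a regulator best known for limiting growth hormone signalling through STAT5, was higher in Treg on both of its probe sets. By the chosen probe set its difference exceeded that of Cish, and by the other it did not. The chosen probe set gave 5.71 and 5.47 in B6 fusion, 4.87 and 5.77 in B6 ires, 5.77 and 5.80 in NOD fusion, and 6.73 and 6.23 in NOD ires Tconv. The Treg values were 8.95 and 9.17, 9.45 and 9.43, 8.67 and 8.72, and 8.74 and 9.07 in the same order. All Treg arrays were above all Tconv arrays, with B6 ires Treg at the top and B6 ires Tconv at the bottom. The difference was 3.23 ± 0.11. With values under the filter level raised to it, the chosen probe set was 7.26-fold higher in Treg (2.86 on the log2 scale). Its adjusted p is left out as for Il2ra. The other probe set of Socs2, above the filter level on all arrays, gave the same direction with a smaller difference, 1.10 ± 0.06 (adjusted p = 8.19e-11), from a Tconv range of 6.41 to 6.71 and a Treg range of 7.36 to 8.16.

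Cish, a STAT5-induced inhibitor whose start holds the 2 motif matches printed above, had a median of 9.52 in Treg (9.32 to 9.84) and 7.65 in Tconv (7.36 to 8.12). The cell types did not overlap, and the difference was 1.87 ± 0.10, or 3.65-fold (adjusted p = 2.38e-11). Socs1, which binds and inhibits Janus kinases directly, had a median of 8.66 in Treg (8.34 to 9.05) and 8.16 in Tconv (7.86 to 8.32). Its lowest Treg array, of NOD fusion mice, lay just above its highest Tconv array, of B6 ires mice, and the difference was 0.53 ± 0.07, or 1.45-fold (adjusted p = 3.08e-06).

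Socs3, an inhibitor mainly tied to STAT3-activating cytokines, differed least. In Tconv it was 9.22 and 8.77 in B6 fusion, 8.92 and 9.15 in B6 ires, 9.44 and 9.36 in NOD fusion, and 9.16 and 9.12 in NOD ires mice. In Treg it was 9.24 and 9.21, 9.53 and 9.41, 9.47 and 9.47, and 9.29 and 9.15 in the same order. The cell types overlapped, and the NOD fusion Tconv arrays were above the B6 fusion Treg arrays. The difference was 0.20 ± 0.07, or 1.15-fold (adjusted p = 0.0332), and the other probe set gave 0.19 ± 0.08 (adjusted p = 0.0879). The call was lost in 9 of the 16 fits that left out 1 array. The adjusted p was then 0.111 without B6 fusion Tconv 2, 0.0685 without NOD fusion Tconv 2, 0.0823 without B6 ires Tconv 1 and 0.0627 without NOD ires Tconv 2. It was 0.0561 without B6 fusion Treg 1, 0.0554 and 0.0541 without NOD fusion Treg 1 and 2, 0.0811 without B6 ires Treg 1 and 0.0801 without NOD ires Treg 1.

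**Figure D1:**
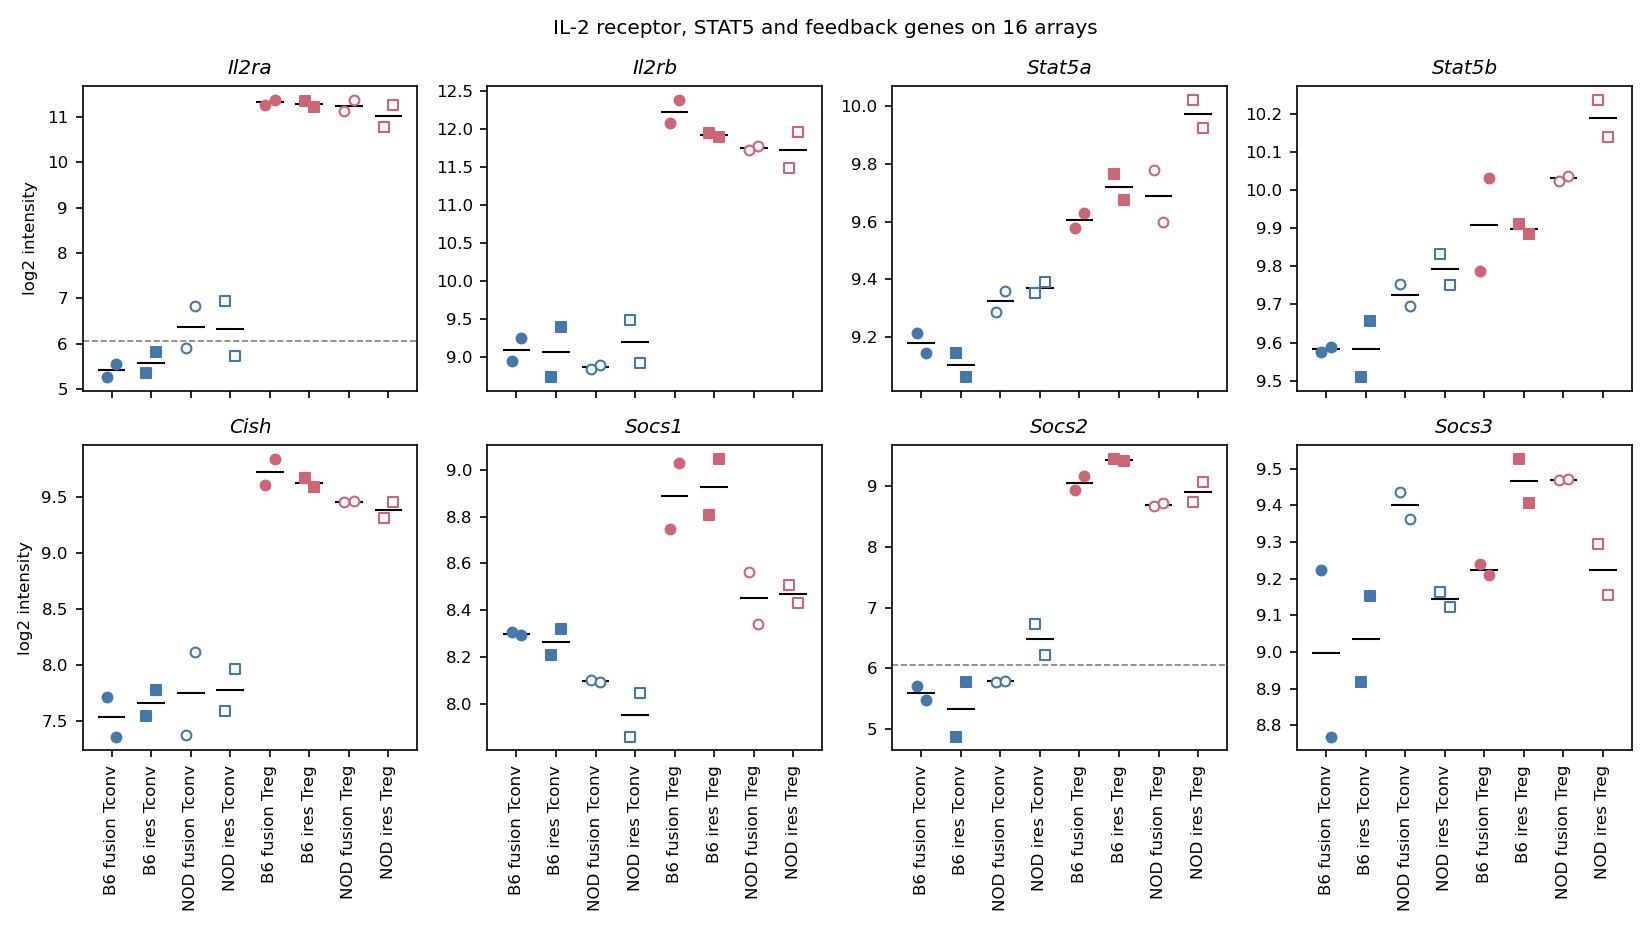
Log2 intensity (vertical axis, a separate scale per gene) of the 8 members on 16 arrays in 8 groups (horizontal axis); each point is 1 array, bars are group means, blue is Tconv, red is Treg, filled is B6, open is NOD, circles are fusion and squares are ires. The dashed line marks the filter level of 6.06; Il2ra, Il2rb, Stat5a, Cish, Socs1 and Socs2 show no overlap between the cell types, and Socs3 shows the most.

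Line by line, Il2ra was higher in Treg by 5.90 in B6 fusion, 5.69 in B6 ires, 4.88 in NOD fusion and 4.68 in NOD ires mice (SE 0.30 each). Socs2 was higher by 3.47, 4.12, 2.91 and 2.43 in the same order (SE 0.21). Cish was higher by 2.18, 1.97, 1.71 and 1.61 (SE 0.19). In these 3 genes, and in Socs1 (0.59, 0.66, 0.35 and 0.52) and Socs3 (0.23, 0.43, 0.07 and 0.08), both B6 lines had larger differences than both NOD lines. Of these 5, only Socs2 was called in the test of that pattern, which is given with the strains. Il2rb (3.14, 2.87, 2.88 and 2.52) and Stat5b (0.33, 0.32, 0.31 and 0.40) showed no such split.

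**Figure D2:**
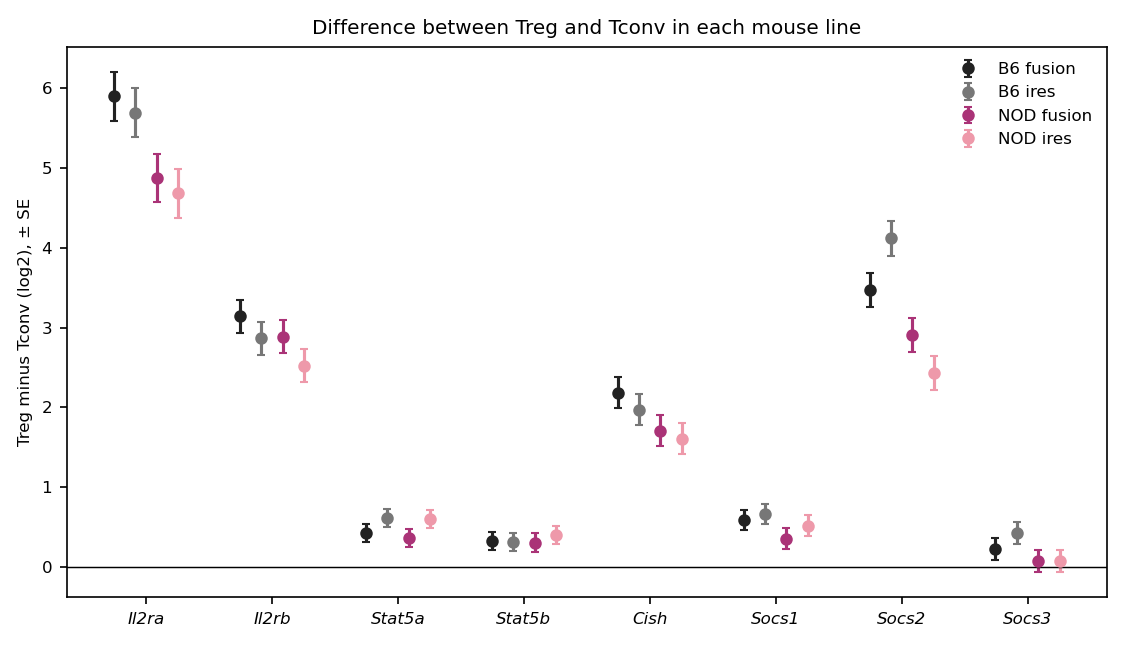
Difference between Treg and Tconv (log2, vertical axis) for each member (horizontal axis) in the 4 mouse lines; points are fitted differences over 2 arrays a side, and bars are ± SE of the fit. All differences are above 0, from 0.07 for Socs3 in NOD fusion mice to 5.90 for Il2ra in B6 fusion mice.

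Fusion and ires alleles were compared within each cell type to see whether joining GFP to Foxp3 went with another level of these genes. In Treg, 0 of 8 members were called by limma, and 1 had an unadjusted p under 0.05. Over all tested genes 0.609% were called, and no member's arrays separated by allele, beside 2.15% of all genes. Stat5a in Treg was 9.58 and 9.63 in B6 fusion, 9.67 and 9.77 in B6 ires, 9.60 and 9.78 in NOD fusion, and 9.92 and 10.02 in NOD ires mice. The ires arrays tended higher with overlap between the alleles, and the difference of fusion from ires was -0.20 ± 0.08 (unadjusted p = 0.0199, adjusted p = 0.462).

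The intervals bound how far the alleles could differ in Treg. Fusion minus ires was 0.13 for Il2ra (95% interval -0.32 to 0.58), 0.17 for Il2rb (-0.14 to 0.48) and 0.08 for Cish (-0.21 to 0.37). It was -0.03 for Socs1 (-0.22 to 0.17), 0.00 for Socs3 (-0.20 to 0.21) and -0.07 for Stat5b (-0.24 to 0.10). Socs2 had the estimate farthest from 0, at -0.29 (-0.61 to 0.025). These intervals are not adjusted for the number of genes, and they leave room for changes of up to about the listed bounds.

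In Tconv, 0 of 8 members were called between the alleles by limma and 0 had an unadjusted p under 0.05, beside 0.0234% called over all genes. No member's Tconv arrays separated by allele, beside 1.09% of all genes. The point estimates lay between -0.21 for Socs2 and 0.11 for Socs3. By background, fusion minus ires of Socs2 was 0.27 ± 0.21 in B6 and -0.69 ± 0.21 in NOD Tconv, from values mostly under the filter level. That gap between the backgrounds in Tconv was not tested. The gap between the alleles' effects in Treg and Tconv was called for 0 of 8 members (0 with an unadjusted p under 0.05), beside 0.0469% of all genes. The allele effect in NOD Treg minus that in B6 Treg was called for 0 of 8 (1 with an unadjusted p under 0.05), beside 0.0391%. That 1 was Socs3, where fusion minus ires was -0.24 in B6 Treg and 0.25 in NOD Treg, a difference of 0.49 ± 0.19 (unadjusted p = 0.0219, adjusted p = 0.763).

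The strains were compared within each cell type. In Treg, 2 of 8 members were called between NOD and B6, Socs1 and Socs2, both lower in NOD. Over all tested genes 21.0% were called and 9.82% were called lower, so a count of 2 is near what the whole array gave. The arrays of the strains did not overlap for 2 members, Socs1 and Cish, beside 20.7% of all genes.

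Socs1 in Treg was 8.75 and 9.03 in B6 fusion, 8.81 and 9.05 in B6 ires, 8.56 and 8.34 in NOD fusion, and 8.51 and 8.43 in NOD ires mice. Every NOD array was below every B6 array, whichever allele it carried, and the difference was -0.45 ± 0.09, or 0.734-fold (adjusted p = 0.00234). It was called in all 27 alternative analyses, with values between -0.52 and -0.38. Cish had its NOD Treg arrays between 9.32 and 9.46 and its B6 Treg arrays between 9.58 and 9.84, but the difference of -0.25 ± 0.14 was not called (adjusted p = 0.188).

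Socs2 in Treg was lower in NOD by -0.45 ± 0.15 (adjusted p = 0.0435), with 1 NOD ires array (9.07) above a B6 fusion array (8.95). The call was lost in 9 of 16 fits without 1 array. Of the fits without a Treg array, only that without NOD ires Treg 2 kept it. The adjusted p was 0.051 without NOD fusion Tconv 1 or 2, 0.0786 and 0.118 without B6 fusion Treg 1 and 2, and 0.0822 and 0.0847 without NOD fusion Treg 1 and 2. It was 0.0957 and 0.0973 without B6 ires Treg 1 and 2, and 0.144 without NOD ires Treg 1. The other probe set of Socs2 was also lower in NOD Treg, by -0.35 ± 0.08 (adjusted p = 0.00724), with all NOD arrays (7.36 to 7.61) below all B6 arrays (7.69 to 8.16).

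The receptor and STAT5 genes were not called between the strains in Treg. Il2ra differed by -0.17 (95% interval -0.62 to 0.28) and Il2rb by -0.34 (-0.65 to -0.03, adjusted p = 0.105). Stat5a was higher in NOD by 0.17 (adjusted p = 0.133) and Stat5b by 0.21 (adjusted p = 0.0777). Stat5b was called in 3 of the 11 alternatives that kept every array, among them quantile normalization (0.24, adjusted p = 0.0198). Without B6 fusion Treg 2, the array with the highest B6 Treg value of Stat5b, the Stat5b difference was 0.27 and was called (adjusted p = 0.0256).

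In Tconv, 2 of 8 members were called between the strains, Il2ra and Socs2. Both had a higher fitted level in NOD, but from Tconv values mostly under the filter level. Over all tested genes 15.9% were called (9.39% called higher). Il2ra lay between 5.73 and 6.94 in NOD and between 5.27 and 5.82 in B6 Tconv, a difference of 0.85 ± 0.21 (adjusted p = 0.0143). All 4 B6 and 2 of the 4 NOD values were under the filter level, and with such values raised to it the difference was 0.41 (no test). Only 1 NOD array, NOD ires Tconv 2, fell within the B6 range. The difference was 0.62 without NOD fusion Tconv 2 (adjusted p = 0.091) and 0.55 without NOD ires Tconv 1 (adjusted p = 0.0797), and it was also not called without B6 fusion Tconv 1 (0.0581) or B6 ires Tconv 1 (0.0684).

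Socs2 lay between 5.77 and 6.73 in NOD Tconv and between 4.87 and 5.77 in B6 Tconv without overlap, and the difference was 0.67 ± 0.15 (adjusted p = 0.00695). Here too all 4 B6 and 2 of the 4 NOD values were under the filter level, and with these raised to it the difference was 0.21 (no test). By allele it was 1.15 ± 0.21 between the ires lines and 0.19 ± 0.21 between the fusion lines. The other Socs2 probe set gave 0.06 ± 0.08 in Tconv (adjusted p = 0.628), so the 2 probe sets disagree there. The strains' Tconv arrays did not overlap for 4 members, beside 24.7% of all genes. These were Socs2, Stat5a and Stat5b, higher in NOD, and Socs1, lower in NOD by -0.26 ± 0.09 (adjusted p = 0.0649). Without B6 fusion Treg 1 or 2, which changes the spread and not the value, Socs1 was called there (adjusted p = 0.0477).

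Some markers of Treg also differed between the strains. The log2 summed level of the 5 Treg markers (Foxp3, Ctla4, Ikzf2, Tnfrsf18 and Lrrc32) lay between 9.68 and 9.95 on B6 Tconv arrays and between 10.06 and 10.56 on NOD Tconv arrays. In Tconv, 3 of the 5 were called higher in NOD, Foxp3 by 0.50 (adjusted p = 0.0391), Ikzf2 by 0.61 (adjusted p = 0.00405) and Tnfrsf18 by 0.73 (adjusted p = 1.03e-05). Ctla4 (-0.20) and Lrrc32 (-0.11) were not called there. On Treg arrays the summed level lay between 13.60 and 13.82 in B6 and between 13.36 and 13.51 in NOD, with Ctla4 lower in NOD by -0.63 (adjusted p = 0.0116) and Lrrc32 by -1.04 (adjusted p = 6.83e-06). Foxp3 (0.14), Ikzf2 (0.05) and Tnfrsf18 (-0.21) were not called between the strains in Treg. The CD8 T and NK list summed to 8.32 to 8.66 on NOD Treg and 8.95 to 9.24 on B6 Treg arrays, and to 9.14 to 9.35 on NOD Tconv and 9.25 to 9.43 on B6 Tconv arrays. The myeloid markers Lyz2 (-0.60) and Itgam (-0.45) were also called lower in NOD Treg. The part of these markers in the differences of Il2ra, Socs1 and Socs2 was not tested.

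Whether the strain difference itself depended on the cell type was tested directly. Socs2 was called. NOD minus B6 was -0.45 on Treg arrays and 0.67 on Tconv arrays, a change of -1.12 ± 0.21 (adjusted p = 0.0124), beside 0.820% of all tested genes called and 0.570% called lower. With the Tconv values under the filter level, 6 of 8, raised to it, the change was -0.66 (no test). It lost the call without B6 fusion Treg 2 (-1.07, adjusted p = 0.066), and the other probe set gave -0.41 ± 0.12 (adjusted p = 0.17). Il2ra, with the same number of Tconv values under that level, had nearly as large a difference, -1.02 ± 0.30, with an unadjusted p of 0.00361 and an adjusted p of 0.177, and was called without NOD ires Tconv 2 (-1.32, adjusted p = 0.0107). With its low values raised the Il2ra change was -0.58. Cish gave -0.42 ± 0.19 (adjusted p = 0.482), Socs1 -0.19 ± 0.13 (adjusted p = 0.719) and Socs3 -0.25 ± 0.14 (adjusted p = 0.584). Of the Treg markers, Tnfrsf18 (-0.94) and Lrrc32 (-0.93) were called in the same test (adjusted p = 0.000309 and 0.00675), and of the myeloid markers Itgam (-0.83, adjusted p = 0.0418). Their part in the Socs2 result was not tested. The test on the strain difference is the same as a test of whether the gap between Treg and Tconv differs between NOD and B6.

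**Figure D3:**
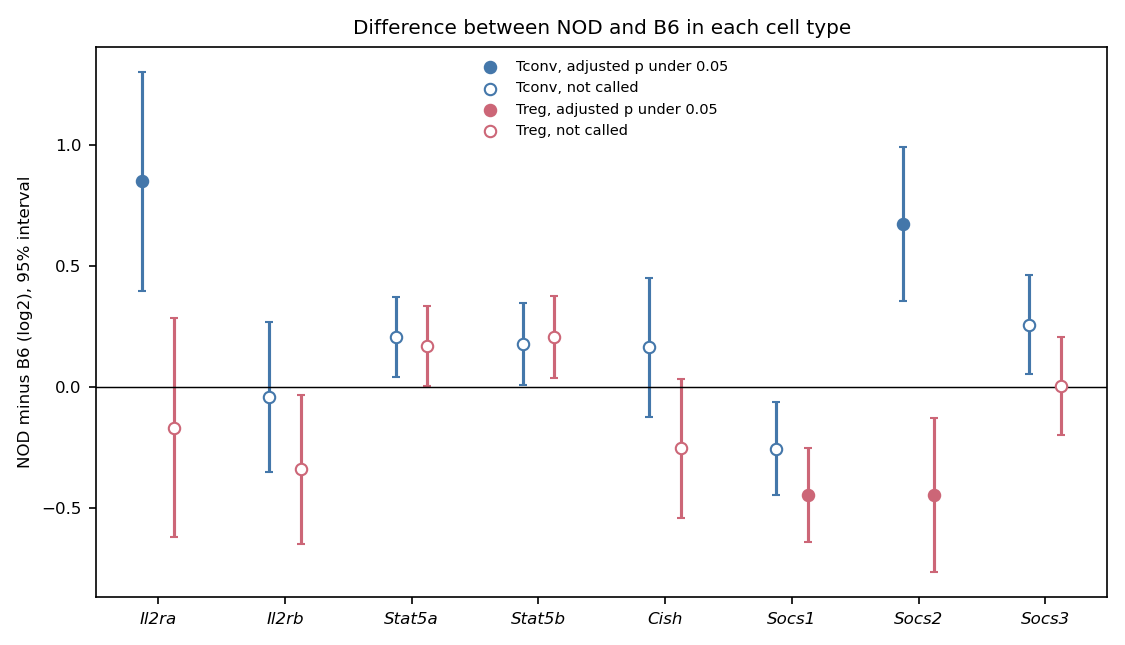
NOD minus B6 difference (log2, vertical axis) of each member (horizontal axis) in Tconv (blue) and Treg (red), over 4 arrays a side; bars are 95% intervals of the fit and filled points have an adjusted p under 0.05. Socs2 lies at 0.67 in Tconv and -0.45 in Treg, whereas Socs1 lies below 0 in both.

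Socs3 depended on the probe set. Its chosen probe set differed between the strains by 0.00 ± 0.10 in Treg (adjusted p = 0.988) and 0.26 ± 0.10 in Tconv (adjusted p = 0.0775). The other probe set, lower on the arrays, was higher in NOD by 0.55 ± 0.11 in Treg (adjusted p = 0.00229) and 0.42 ± 0.11 in Tconv (adjusted p = 0.0215). On that probe set the NOD Treg arrays (8.70 to 8.98) did not overlap the B6 Treg arrays (8.11 to 8.56), whereas on the chosen one they did. The chosen probe set was called in Tconv without B6 fusion Tconv 1 (0.37, adjusted p = 0.0252) or B6 ires Tconv 2 (0.31, adjusted p = 0.0475).

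The rest of the pathway was followed in a list of 43 other genes of the common gamma chain cytokines, their kinases and STATs, inhibitors and known STAT5 targets. Of these, 42 had a probe set of their own and 36 were tested. In Treg against Tconv 17 were higher, 6 lower and 13 not called, with a median difference of 0.13. Over all tested genes 28.6% were called and 16.7% called higher, and the median was -0.01. Ligands were low in both cell types: none of 6 was tested, and Il2 lay between 4.20 and 4.84 on Treg arrays and between 4.67 and 5.28 on Tconv arrays.

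All 5 other receptor chains differed. Il7r, the IL-7 receptor chain of resting T cells, fell by 0.82 in Treg (adjusted p = 1.18e-08), from a Tconv range of 11.72 to 11.97 to a Treg range of 10.59 to 11.45, without overlap. Il9r was higher by 0.61, Il21r by 0.37, Il15ra, the alpha chain for IL-15, by 0.23, and Il4ra by 0.22. Among 7 kinases and STATs, Tyk2 (0.38), Stat2 (0.42) and Stat3 (0.29) were higher, and Jak1, the kinase paired with Il2rb, differed by -0.08 ± 0.05 (adjusted p = 0.304).

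Of 12 other inhibitors, 3 were higher and 2 lower in Treg. Socs5 rose by 0.52 and Pias3, an inhibitor of STAT3, by 0.45. The phosphatase gene Ptpn6 (SHP-1) fell by 0.29 and Pias2 by 0.23. The third that rose, Ptpn1, is named after its value of 0.22 was seen.

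Of 12 target genes, 7 were higher and 3 lower in Treg. Tnfrsf4 (OX40, a costimulatory receptor) rose by 3.15 ± 0.07, with Treg arrays between 10.72 and 11.42 and Tconv arrays between 7.51 and 8.50. Gzmb (granzyme B) was higher by 2.65 ± 0.19, from Tconv values of 5.15 to 6.38 whose mean, 5.70, lay under the filter level. Its low values were not raised to that level. The survival kinase gene Pim1 rose by 1.27 ± 0.07 and Lta (lymphotoxin alpha) by 0.78 ± 0.06. Bcl6, a repressor, was higher by 0.30, and Ccnd3 (cyclin D3) was lower by -0.32. Pim2, a relative of Pim1, went the other way at -0.82 ± 0.07 (adjusted p = 1.33e-08) and is named after its value was seen.

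**Figure D4:**
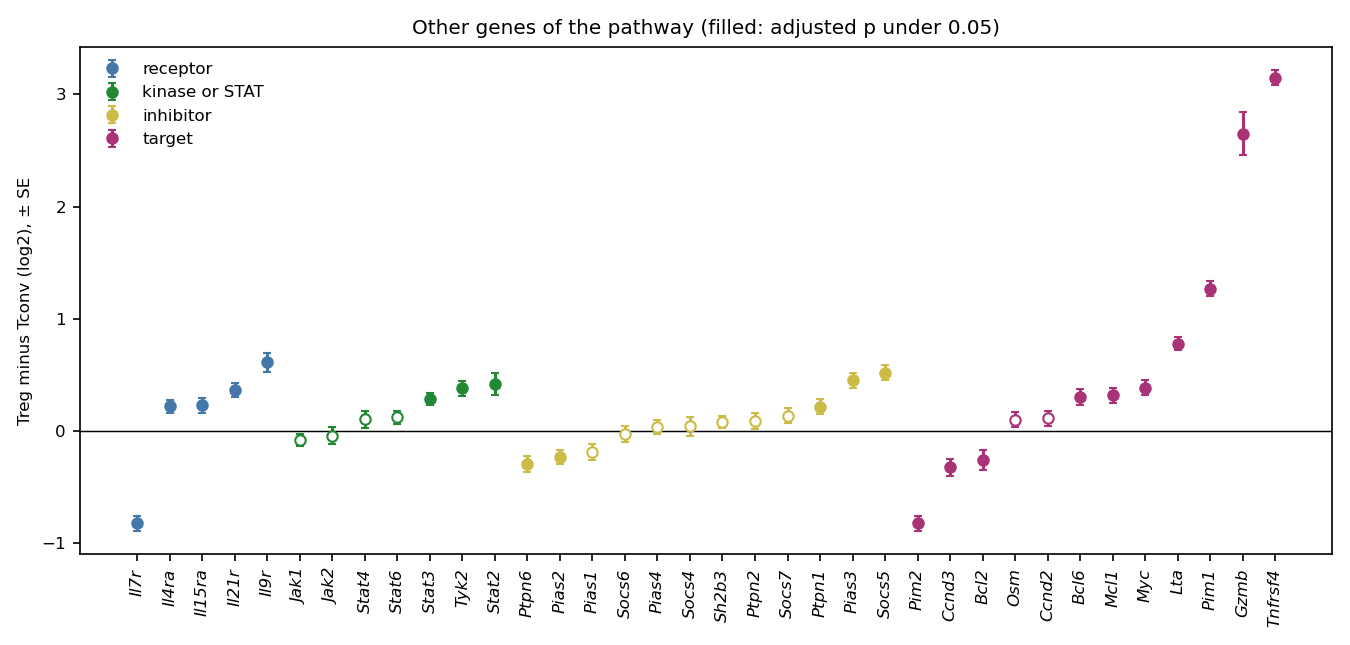
Treg minus Tconv difference (log2, vertical axis) of the 36 tested genes of the wider pathway list (horizontal axis), ordered within each role; points are fitted over 8 arrays a side, bars are ± SE, and filled points have an adjusted p under 0.05. Tnfrsf4, Gzmb and Pim1 lie above 1, and Il7r and Pim2 lie lowest, both at -0.82.

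Between the alleles in Treg, 2 of the 36 were called, beside 0.609% of all tested genes. Il7r was higher in fusion by 0.44 ± 0.09 (adjusted p = 0.0416), at a mean of 11.23 beside 10.79 in ires. Bcl6 was lower in fusion by -0.45 ± 0.10 (adjusted p = 0.0385). Each call was lost in 7 of the 16 fits without 1 array, all of them without a Treg array. Leaving out a Tconv array changes the spread and not the value. Of the fits without a Treg array, Il7r kept its call only without NOD fusion Treg 1, and Bcl6 only without B6 fusion Treg 2. For Il7r the adjusted p was 0.158 and 0.0579 without B6 fusion Treg 1 and 2, 0.183 without NOD fusion Treg 2, 0.214 and 0.0597 without B6 ires Treg 1 and 2, and 0.174 and 0.102 without NOD ires Treg 1 and 2. For Bcl6 it was 0.158 without B6 fusion Treg 1, 0.146 and 0.075 without NOD fusion Treg 1 and 2, 0.106 and 0.157 without B6 ires Treg 1 and 2, and 0.148 and 0.103 without NOD ires Treg 1 and 2.

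Between the strains in Treg, 8 of the 36 were called, a share near the 21.0% of all tested genes. Higher in NOD were Bcl6 (0.44, adjusted p = 0.00346), Ccnd3 (0.40), Pias2 (0.29) and Stat3 (0.25). Lower in NOD were Tnfrsf4 (-0.43, adjusted p = 0.00399), the cytokine gene Osm (-0.39, adjusted p = 0.00834), Gzmb (-0.94, adjusted p = 0.0216) and Il7r (-0.30). The calls of Bcl6, Tnfrsf4 and Osm held in each fit that left out 1 array. With quantile normalization Tnfrsf4 was at -0.22 and not called (adjusted p = 0.0634), and Il7r was at -0.10 (adjusted p = 0.378).

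The other 5 did not hold throughout. Il7r lost the call without B6 fusion Treg 1 (adjusted p = 0.115), NOD fusion Treg 1 (0.134), B6 ires Treg 2 (0.147), NOD ires Treg 1 (0.0973) or NOD ires Treg 2 (0.0573). Stat3 lost it without B6 fusion Treg 1 (0.0733), NOD fusion Treg 1 (0.0841), B6 ires Treg 1 (0.0844) or 2 (0.0674), or NOD ires Treg 1 (0.0771) or 2 (0.067). Pias2 lost it without B6 fusion Treg 1 (0.0926), NOD fusion Treg 2 (0.115), B6 ires Treg 1 (0.0812) or 2 (0.0744), or NOD ires Treg 2 (0.159). Ccnd3 lost it without B6 fusion Treg 1 (0.0875), B6 ires Treg 2 (0.0516) or NOD ires Treg 2 (0.0811). Gzmb lost it without B6 fusion Treg 1 (-0.71, adjusted p = 0.148), NOD fusion Treg 2 (-0.85, 0.0733), B6 ires Treg 1 (-0.50, 0.106) or NOD ires Treg 1 (-0.93, 0.0534).

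Tnfrsf4 also went opposite ways in the 2 cell types. It was higher in NOD Tconv by 0.55 ± 0.10 (adjusted p = 0.000916) and lower in NOD Treg, and its strain difference in Treg minus that in Tconv was -0.97 ± 0.13 (adjusted p = 0.000611). It was the only one of the 36 called in that test.

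The tested genes whose 8 group means ran most like those of the members are given by Pearson's r over those 8 groups, which share the same arrays and split first by cell type. For Il2ra they were Slfn9, Myo1e and Nrp1 (each r = 0.998). For Il2rb they were Map3k8, Rhoh and Cish (each r = 0.995). A wide gap between the cell types by itself gives a high r, so this cannot show a link between the genes. Il2ra had r = 0.996 with Cish and 0.986 with Socs2. For Cish they were Pim1 (0.998), Ncf4 (0.997) and Map3k8 (0.996). For Socs2 they were Prkcd (0.995), Gata1 (0.993) and Plcb3 (0.993). For Socs1, whose pattern also carried the lower NOD level in both cell types, they were Rrad (0.991), Sesn2 (0.985) and Kcnq5 (0.983).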

How the data were processed

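Affymetrix Power Tools and RMA produced the deposited linear intensities, per the submitters' processing notes. For tool versions and genome build: not given in the sources used here. These intensities were turned into log2 values with no pseudocount. The platform table gave 21157 of 25108 probe sets exactly 1 gene symbol, 1341 several and 2610 none. The probe set with the highest mean stood for a gene. The 12798 genes that exceeded log2 6.06, the 40th percentile of the values, on 2 or more arrays were tested.

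A model with a mean for each group was fitted over the 16 arrays (limma 3.58.1, R 4.3.3, 8 residual and 9.80 prior degrees of freedom), two-sided, with Benjamini-Hochberg adjustment over all tested genes and a threshold of 0.05. Every adjusted p in the text is from this fit or from its alternatives. The number of arrays limits the precision. Scanner files were not used, and the background correction was not varied. The strains' sequence differences at the probes were not examined.

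The members, the pathway and marker lists and the tests were chosen with earlier results of these data known. All members are named with their other probe sets. For 5 members the 3 most correlated tested genes are named, passing over predicted genes, small RNAs and receptor segments. Up to 4 called pathway genes per role with the smallest adjusted p are named, plus those called in another contrast and Il2, Il7r, Il15ra and Jak1. Same-numbered Treg and Tconv arrays of a line deviated together with r = 0.398, 0.239, 0.396 and 0.0803. Over all pairs of groups r ran from -0.371 to 0.465, so this check cannot tell whether the numbers pair the samples. The main fit did not pair them. Alternatives were no filter, a filter at the 60th percentile, centring, quantile normalization, trend and robust variances, array weights, probe sets averaged per gene or taken singly, fits of only the groups compared, replicate blocks and leaving out each array, plus raising values under the filter level to it, chosen after the data were seen. Plots used Python 3.11.15, numpy 2.4.6, pandas 2.3.3 and matplotlib 3.10.9.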

Additional observations from a re-analysis of the deposited data

Results flagged for a closer look

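On its chosen probe set, Socs2 differed between NOD and B6 in opposite directions in the 2 cell types. The NOD minus B6 difference in Treg less that in Tconv was -1.12 on the log2 scale (SE 0.21, limma adjusted p = 0.0124), with differences of -0.45 in Treg and 0.67 in Tconv over 4 arrays a side. Of its 8 Tconv values 6 lay under the filter level of log2 6.06, and raising these to it gave -0.66 with no test. The other probe set of the gene, above that level on all arrays, gave -0.41 (adjusted p = 0.17). Its NOD minus B6 difference was -0.35 in Treg and 0.06 in Tconv (adjusted p = 0.628), so it showed no opposite directions.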

How the results depend on the processing

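Of the 13 called differences of the members, all 13 kept their sign and 9 kept their call in all 27 alternatives with a test. The exceptions were Socs3 in Treg against Tconv, Socs2 between the strains in Treg, Il2ra between the strains in Tconv, and the Socs2 difference of strain effects. Probe sets taken singly still gave the chosen probe set's result, so that alternative could not show a disagreement between probe sets. The 9 include Socs2 between the strains in Tconv, where the other probe set gave 0.06 (adjusted p = 0.628). For a contrast within 1 cell type, leaving out an array of the other changes the spread and not the value. Of 35 called differences of the other pathway genes, all 35 kept their sign and 25 their call. In Treg against Tconv, 7 members were called in all 27. The count of members called between the strains in Treg, 2, fell to 1 with no filter on low values and to 1 with each array centred on its median, and leaving out 1 array gave 1 to 2. In Tconv that count, 2, was 4 with centred arrays, 4 with the replicate block within each mouse line, and 1 to 3 without 1 array. The count for the strain effect in Treg minus that in Tconv, 1, was 0 to 2 without 1 array. The replicate block within lines added Socs1 (adjusted p = 0.0349) and Socs3 (0.0455) in Tconv and Stat5b (0.0485) in Treg, and the block over all groups added Socs1 in Tconv (0.0495). The check used cannot tell whether the numbers pair the samples, so these calls are given as alternatives only.

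Socs3 in Treg against Tconv was not called with no filter (adjusted p = 0.0551), centring (0.0984) or quantile normalization (0.0763). Socs2 between the strains in Treg was not called with no filter (0.0617), centring (0.0883), quantile normalization (0.0535) or trend and robust variances (0.0563), and Il2ra in Tconv was not called with the last (0.0826). Quantile normalization also ended the call of Il7r (-0.10, 0.378) and Tnfrsf4 (-0.22, 0.0634) between the strains in Treg. The same setting added calls of Stat5b in Treg (0.24, 0.0198) and Socs1 in Tconv (-0.34, 0.0168). Trend and robust variances added Stat5b in Treg (0.0485) and Socs3 in Tconv, and centring added Stat5a (0.0305) and Socs3 (0.0301) in Tconv. With centring the Tconv strain difference went from 0.21 to 0.29 for Stat5a and from 0.26 to 0.34 for Socs3. Its median over all tested genes also went up, from 0.02 to 0.10. Raising values under the filter level to it, an alternative chosen after seeing the data and run with no test, moved the Tconv strain difference of Il2ra to 0.41 and of Socs2 to 0.21. Il2rb in Treg was called between the strains in a fit of only the groups compared (0.0359), and Socs3 with the mean of its probe sets (0.0377 in Treg, 0.0193 in Tconv). The cause was not tested. Low signal limits the Tconv values of Il2ra and Socs2, and 2 arrays a group limit all.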
